A study of Mus musculus with 12 samples.

Results

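The class IIa histone deacetylases *Hdac4*, *Hdac5*, *Hdac7* and *Hdac9*, the salt-inducible kinases *Sik1*, *Sik2* and *Sik3*, and the myocyte enhancer factor 2 genes *Mef2a*, *Mef2c* and *Mef2d* were followed through bone marrow neutrophils and macrophages of the mouse. These 10 genes, of 52636 in the count tables, were taken by symbol as kinases, deacetylases and partner factors under the control of cyclic AMP. The list was chosen by gene family with the levels and the CGRP-against-saline log2 fold changes of these libraries already known, so those values are given as a description and without p-values. Where the genes past the threshold of the fit over all genes are counted, the count describes how they were listed and is no test of them.

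Both cell types came from the marrow of young adult C57BL/6J mice, and no gene had been altered in any group. Neutrophils were enriched by negative selection and kept for 4 h in RPMI with serum, and monocytes were isolated the same way, grown for 3 days in DMEM/F12 with serum and 10 ng/ml M-CSF, the macrophage growth factor, and then given fresh medium for 4 h (labelled monocyte/macrophage and called macrophages here). During those 4 h the cells received 1 nM CGRP, the sensory neuron peptide calcitonin gene-related peptide, or saline (PBS). Each of the 4 groups had 3 libraries, 12 in all, whose counts summed to between 2002559 and 3631989, and nothing in the labels says that they came from separate mice or cultures, so the spread between libraries may be technical.

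Levels are given as CPM, the counts of a gene scaled to a common library total, here after TMM scaling over the 12 libraries. A count of 3, taken as the floor, was worth between 0.861 and 1.51 CPM on this scale, which covers counting error only. Reads came from the 3′ ends of messages, so a level is not divided by gene length, and levels were compared between groups and not between genes. Differences are log2 fold changes from limma-voom with their standard errors (SE). In bulk RNA, fewer cells that make a message and less of it per cell cannot be told apart.

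The libraries carried the markers of their labels. The summed level of 11 neutrophil markers, led by *S100a8*, was between 162900 and 236200 CPM in saline neutrophils and between 302 and 395 CPM in saline macrophages. The summed level of 11 macrophage markers, led by *Apoe*, was between 34590 and 38660 CPM in saline macrophages and between 1937 and 1960 CPM in saline neutrophils. The neutrophil libraries also held erythroid transcripts, whose 6 markers, led by *Hbb-bs*, summed to between 5773 and 7381 CPM with saline and to between 5884 and 7227 CPM with CGRP. In the macrophage libraries the same erythroid sum was at most 27.0 CPM. In neutrophils 5 markers of mast cells, basophils and eosinophils, led by *Prg2*, summed to between 966 and 1141 CPM with saline. With CGRP their sum was between 899.9 and 1059 CPM, and in the macrophage libraries it was at most 12.2 CPM. The part of such cells in the levels of the 10 genes was not tested.

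CGRP acts through a receptor coupled to the stimulatory G protein, which raises cyclic AMP and activates protein kinase A. Salt-inducible kinases are switched on by LKB1 and switched off when protein kinase A phosphorylates them. While active, they phosphorylate class IIa deacetylases and the CRTC coactivators, which then bind 14-3-3 proteins and stay in the cytoplasm. Without that phosphorylation the CRTCs join CREB on cyclic AMP response elements (CRE), and the class IIa deacetylases enter the nucleus, bind MEF2 factors and bring the NCoR/SMRT–HDAC3 corepressor to MEF2 target genes. In myeloid cells this branch is known for its part in the switch between inflammatory and regulatory gene expression. These steps take place on proteins, whereas the libraries measured messages.

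The promoters of 9 of the 10 genes were in the RefSeq table (GRCm38.p6), in 15 windows that each ran from 250 bases before to 50 after an annotated start. *Sik1* had no entry. The short CRE motif TGACG, searched on both strands, lay in 1 window each of *Hdac4*, *Hdac5*, *Sik2* and *Sik3*, which is 26.7% of the windows against 20.8% of all 32851 promoter windows. The windows of *Hdac4* and *Sik3* held 3 copies each, where 1.03% of all windows held 3 or more, and those of *Hdac5* and *Sik2* held 2 each, where 5.01% held 2 or more. The full palindrome TGACGTCA, which contains the short motif, was in none of the 15 windows and in 1.79% of all windows. The MEF2 box was found in 1 window of *Hdac5* and in that of *Mef2a*, against 3.19% of all windows. A match of letters is not a measured binding site. The stretches printed here run from 150 bases before to 30 after the start. They were picked by their motifs and not by CGRP values. *Hdac4* and *Sik3* are printed for their 3 copies of the short CRE motif, and *Hdac5* and *Mef2a* for their MEF2 box. Capitals mark the short CRE motif, on either strand, and in *Hdac5* and *Mef2a* the MEF2 box.
Hdac4: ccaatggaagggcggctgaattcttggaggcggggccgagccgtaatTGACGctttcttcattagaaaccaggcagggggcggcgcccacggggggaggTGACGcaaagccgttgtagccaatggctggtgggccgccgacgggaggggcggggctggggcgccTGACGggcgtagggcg
Hdac5: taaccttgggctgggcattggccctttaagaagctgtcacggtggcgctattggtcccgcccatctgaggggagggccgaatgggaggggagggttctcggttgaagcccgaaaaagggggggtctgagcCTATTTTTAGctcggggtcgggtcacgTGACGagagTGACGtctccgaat
Sik3: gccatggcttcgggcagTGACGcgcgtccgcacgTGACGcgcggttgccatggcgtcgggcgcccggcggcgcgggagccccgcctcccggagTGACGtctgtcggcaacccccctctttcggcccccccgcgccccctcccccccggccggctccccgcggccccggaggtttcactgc
Mef2a: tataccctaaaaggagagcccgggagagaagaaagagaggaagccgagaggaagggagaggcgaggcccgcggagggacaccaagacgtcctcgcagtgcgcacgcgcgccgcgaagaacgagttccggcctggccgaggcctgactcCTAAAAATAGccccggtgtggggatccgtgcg
The *Hdac4* stretch lies at chr1:92180312-92180491 (minus strand), inside the gene as GENCODE draws it. The *Hdac5* stretch lies at chr11:102230143-102230322 (minus strand), the *Sik3* stretch at chr9:46012670-46012849 (plus strand) and the *Mef2a* stretch at chr7:67372829-67373008 (minus strand).

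**Figure D1:**
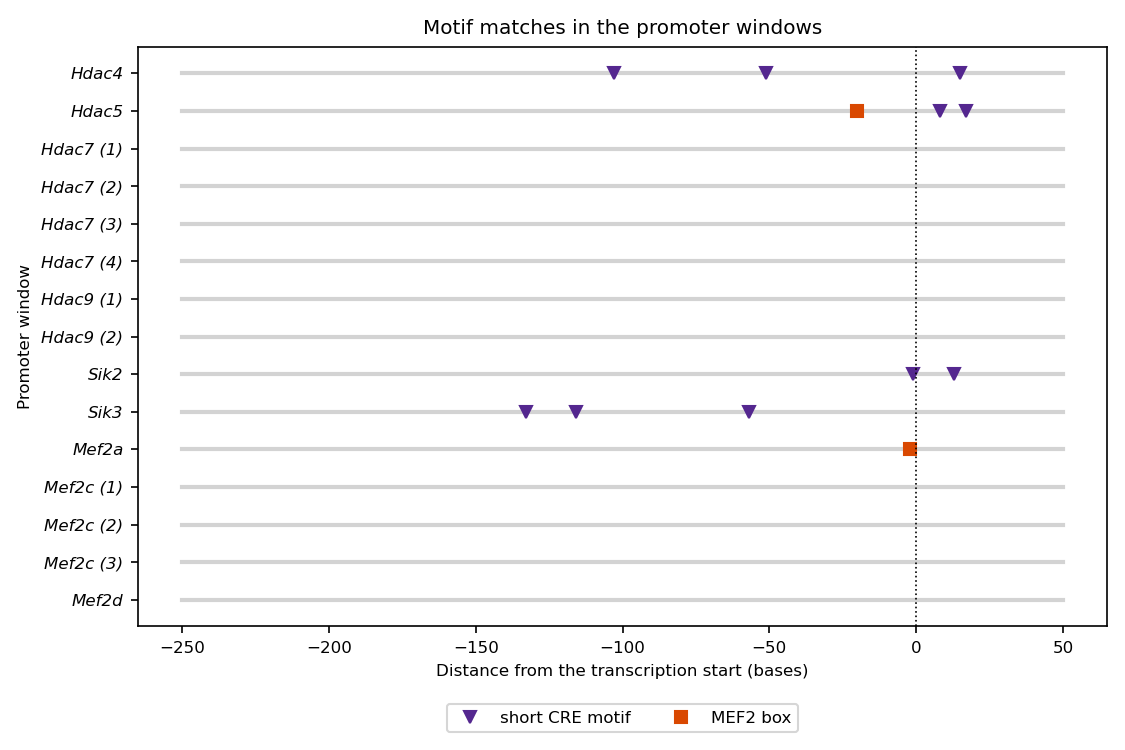
Positions of motif matches (x axis, bases from the annotated start, 0 dotted) in the 15 RefSeq promoter windows of 9 genes (y axis, with window numbers where a gene has several), triangles for the short CRE motif and squares for the MEF2 box. The matches fall in *Hdac4*, *Hdac5*, *Sik2*, *Sik3* and *Mef2a*, and the other windows are empty.

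Among the salt-inducible kinases, *Sik3* stood higher with CGRP in neutrophils. *Sik3* encodes the most widely expressed of the kinases and lies on chromosome 9 (GRCm38, 46012820 to 46224194, plus strand). Its neutrophil level was 7.91, 8.29 and 13.7 CPM with saline and 21.5, 23.2 and 21.0 CPM with CGRP, so that every CGRP library lay above every saline library. The log2 fold change was 1.21 (SE 0.23, n = 3 per group). In macrophages it was 7.17, 4.80 and 9.71 CPM with saline and 8.78, 12.9 and 10.6 CPM with CGRP, with overlapping ranges and a log2 fold change of 0.62 (SE 0.31). The neutrophil CGRP group was the highest of the 4 and clear of the rest, while each of the other groups overlapped its neighbour. The promoter windows of *Sik3* and of *Hdac4*, which stood lower with CGRP in neutrophils, each held 3 copies of the short CRE motif. Whether the motif bears on either level was not tested.

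*Sik1* encodes the kinase that is itself known as a cyclic AMP-induced gene. It lies on chromosome 17 (31844250 to 31855804, minus strand). Saline neutrophils gave 16, 13 and 21 counts and CGRP neutrophils 23, 20 and 25, which is 5.54 ± 1.84 and 8.10 ± 2.60 CPM (SD, n = 3), with a log2 fold change of 0.52 (SE 0.33) and overlapping levels. Saline macrophages gave 0, 3 and 8 counts and CGRP macrophages 9, 19 and 11, equal to 1.26 ± 1.47 and 5.13 ± 2.13 CPM. The highest saline library (2.88 CPM) was just above the lowest CGRP library (2.82 CPM), and the gene had too few counts to enter the macrophage fit. The last 500 bases of *Sik1* shared 2.98% of their 31-base words with other annotated transcripts, the highest share of the 10 genes.

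*Sik2* (chromosome 9, 50892801 to 51009073, minus strand) ranged from 6.64 to 11.1 CPM in saline and from 8.45 to 14.1 CPM in CGRP neutrophils. In macrophages its range was 3.44 to 5.10 CPM with saline and 2.22 to 3.76 CPM with CGRP. The ranges overlapped in both cell types, with log2 fold changes of 0.28 (SE 0.28) and −0.43 (SE 0.42). With a library left out, these values ranged from 0.02 to 0.46 in neutrophils and, where fitted, from −0.64 to −0.22 in macrophages. An exon of *Ppp2r1b* overlaps *Sik2* on the other strand, and since the strand setting of the counting is not given in the sources used here, reads of the pair cannot be told apart with certainty.

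**Figure D2:**
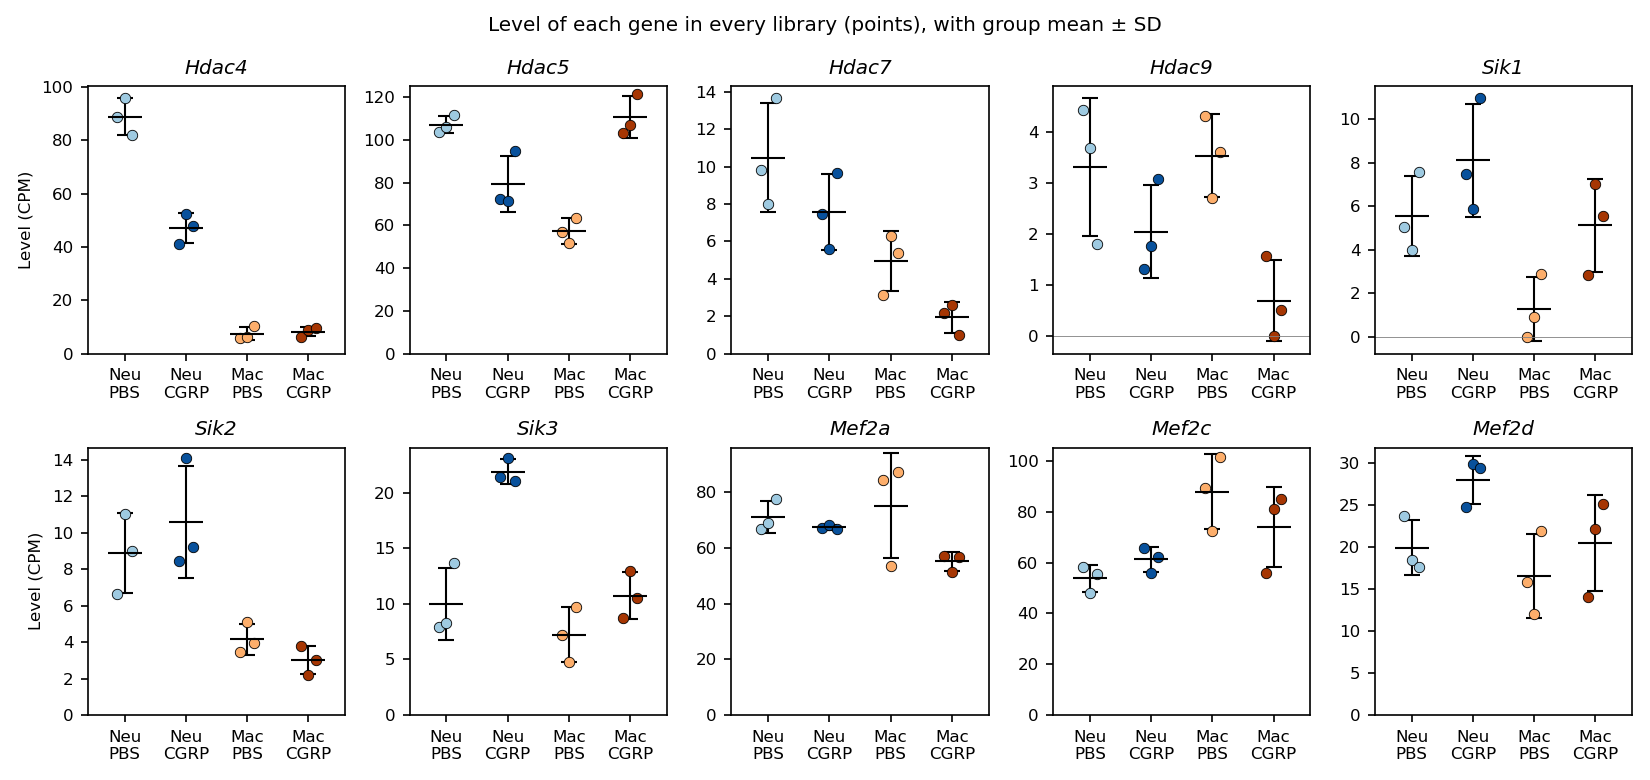
Level of each of the 10 genes in CPM (y axes, 1 scale per gene) in the 4 groups (x axes, Neu neutrophils, Mac macrophages), with a point per library and bars for the group mean ± SD (n = 3). *Hdac4* was 81.8 to 95.8 CPM in saline neutrophils and 41.0 to 52.5 CPM with CGRP, and *Hdac5* moved down in neutrophils and up in macrophages.

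Of the class IIa deacetylases, *Hdac4* and *Hdac5* stood lower with CGRP in neutrophils, and *Hdac5* stood higher with CGRP in macrophages. *Hdac4*, a MEF2 corepressor that shuttles between cytoplasm and nucleus, lies on chromosome 1 (91928779 to 92195699, minus strand). In neutrophils its level was 88.9, 95.8 and 81.8 CPM with saline and 41.0, 52.5 and 47.8 CPM with CGRP. No CGRP library reached the lowest saline library, and the log2 fold change was −0.90 (SE 0.13, n = 3 per group). In macrophages the level was 5.74, 6.29 and 10.4 CPM with saline and 6.27, 8.87 and 9.56 CPM with CGRP, with overlapping ranges and a log2 fold change of 0.17 (SE 0.32). The order of the groups was thus saline neutrophils, CGRP neutrophils and then the macrophage groups, of which only the macrophage pair overlapped.

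*Hdac5*, the closest relative of *Hdac4* in this role, lies on chromosome 11 (102194432 to 102230166, minus strand). In neutrophils it had 104, 106 and 112 CPM with saline and 72.2, 71.3 and 94.7 CPM with CGRP, all CGRP libraries being below all saline libraries (log2 fold change −0.45, SE 0.11). CGRP replicate 3 was the nearest to the saline range, and without it the log2 fold change was −0.57. Over all fits with a library left out, the neutrophil value ranged from −0.57 to −0.38. In macrophages *Hdac5* had 56.8, 51.8 and 63.6 CPM with saline and 103, 107 and 122 CPM with CGRP, all above all saline libraries (log2 fold change 0.95, SE 0.15). The level in CGRP macrophages (111 ± 9.69 CPM) overlapped that in saline neutrophils (107 ± 3.99 CPM). CGRP neutrophils (79.4 ± 13.3 CPM) and saline macrophages (57.4 ± 5.92 CPM) followed without overlap. The difference between the *Hdac5* values of the 2 cell types was not tested, since both had a part in the choice of the gene.

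*Hdac7* and *Hdac9* were low. *Hdac7* (chromosome 15, 97792664 to 97844502, minus strand) is a class IIa member known from developing lymphocytes. Saline neutrophils gave 31, 26 and 38 counts of it and CGRP neutrophils 23, 19 and 22, with overlapping levels of 10.5 ± 2.92 and 7.57 ± 2.04 CPM. Saline macrophages gave 11, 21 and 15 counts and CGRP macrophages 7, 7 and 2, equal to 4.95 ± 1.62 and 1.93 ± 0.823 CPM, and no CGRP library reached a saline one. *Slc48a1*, a haem transporter gene, overlaps exons of *Hdac7* on the other strand and had up to 1258 counts in a library.

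*Hdac9* (chromosome 12, 34047580 to 34917095, minus strand) can also be made in a short form that lacks the deacetylase domain, which reads from the 3′ end of the gene may not cover. In neutrophils its counts were 14, 12 and 5 (saline) and 4, 6 and 7 (CGRP), with overlapping levels. Saline macrophages gave 15, 9 and 10 counts and CGRP macrophages 5, 0 and 1, equal to 3.53 ± 0.805 and 0.690 ± 0.800 CPM. The macrophage CGRP libraries all lay below the saline libraries, 2 of them under the floor. Neither *Hdac7* nor *Hdac9* had enough counts for the macrophage fit, and in neutrophils their log2 fold changes were −0.47 (SE 0.29) and −0.71 (SE 0.48). With a library left out, these neutrophil values ranged from −0.67 to −0.26 and from −1.04 to −0.46. Under another alternative that of *Hdac7* reached −1.15.

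**Figure D3:**
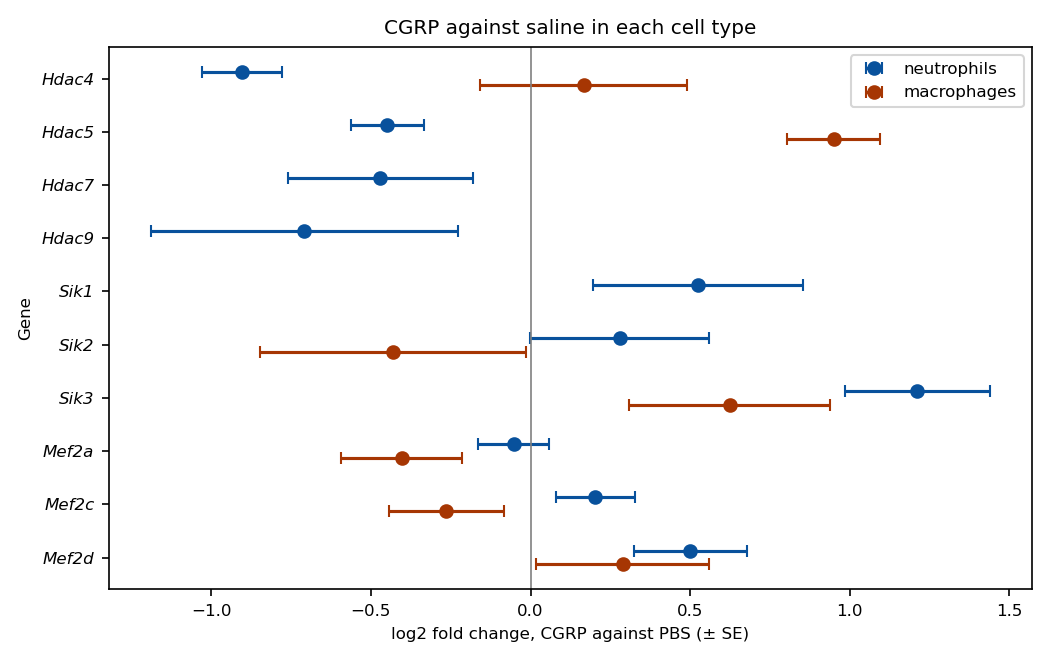
Log2 fold change between CGRP and PBS libraries (x axis, ± SE) of each gene (y axis) from the fits of neutrophils (blue) and macrophages (brown), 3 libraries per group. *Hdac5* lies at −0.45 in neutrophils and 0.95 in macrophages, and *Hdac7*, *Hdac9* and *Sik1* have no macrophage value because their counts were too low to be fitted.

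Of the genes listed, *Mef2a*, *Mef2c* and *Mef2d*, which encode the DNA-binding partners of the class IIa deacetylases, had log2 fold changes between −0.40 and 0.50 with CGRP. *Mef2d* (chromosome 3, 88142372 to 88172086, plus strand) had 23.7, 18.4 and 17.7 CPM in saline and 24.7, 29.9 and 29.4 CPM in CGRP neutrophils. The CGRP libraries all lay above the saline libraries, the nearest pair being 24.7 and 23.7 CPM, and the log2 fold change was 0.50 (SE 0.18). In macrophages it ranged from 11.99 to 21.9 CPM with saline and from 14.1 to 25.2 CPM with CGRP (log2 fold change 0.29, SE 0.27), which overlap.

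*Mef2c* (chromosome 13, 83504034 to 83667080, plus strand) is a factor of both lymphoid and myeloid development. In neutrophils its level was 58.2, 47.9 and 55.5 CPM with saline and 65.7, 56.0 and 62.3 CPM with CGRP (log2 fold change 0.20, SE 0.12). In macrophages it was 89.5, 72.5 and 102 CPM with saline and 56.1, 81.3 and 85.0 CPM with CGRP (log2 fold change −0.26, SE 0.18). Saline and CGRP ranges overlapped in both cell types. B cells also make *Mef2c*, and 5 B cell markers, led by *Cd79b*, summed to between 85.6 and 101 CPM in saline and between 98.8 and 104 CPM in CGRP neutrophils. Their part in the neutrophil level of *Mef2c* was not tested. In macrophages 4 of the 5 markers, *Cd79a*, *Ms4a1* and *Pax5* among them, were at 0 in all libraries, and *Cd79b* was between 31.3 and 32.7 CPM with saline and between 37.2 and 39.9 CPM with CGRP.

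*Mef2a* (chromosome 7, 67231163 to 67372858, minus strand) was between 66.7 and 77.5 CPM in saline and between 66.6 and 68.3 CPM in CGRP neutrophils (log2 fold change −0.05, SE 0.11). In macrophages it was between 53.3 and 87.4 CPM with saline and between 51.4 and 57.0 CPM with CGRP (log2 fold change −0.40, SE 0.19). The lowest value of the saline macrophages was replicate 2, which lay within the CGRP range. *Mef2b*, the remaining member of the MEF2 family, had no count in any library, where 3 counts would have been 0.861 to 1.51 CPM. On the other strand, exons of *Lysmd4* (at most 42 counts in a library), *1700113A16Rik* (at most 9) and *Gm26720* (at most 4) overlap *Mef2a*, *Mef2d* and *Hdac4*.

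With CGRP, 3 of the 10 genes were past the adjusted p threshold of 0.05 in neutrophils, beside 2.53% of all 9819 genes tested. *Sik3* was above, beside 1.51% of all genes, and *Hdac4* and *Hdac5* were below, beside 1.02%. In macrophages 1 of the 7 genes with enough counts was past it, beside 7.43% of 9393 genes, 3.46% above and 3.97% below. That gene was *Hdac5*, above. The saline and CGRP ranges did not overlap for 4 of 10 genes in neutrophils and 1 of 7 in macrophages, beside 17.8% and 24.1% of all genes tested. In neutrophils 2 of the 4 were above (8.96% of all genes) and 2 below (8.83%), and in macrophages the gene was above (11.9%, and 12.3% below). The median log2 fold change was 0.07 over the 10 genes in neutrophils and 0.17 over the 7 in macrophages, whereas over all genes it was 0.00 in each. The macrophage counts and median leave out *Sik1*, *Hdac7* and *Hdac9*, which had too few counts to be fitted, and of these *Hdac7* and *Hdac9* lay lower with CGRP without overlap, so that over all 10 genes 3 did not overlap in macrophages, 1 above and 2 below. As the genes were listed with these contrasts in view, nothing is read from the counts. *Hdac5* was past the threshold in neutrophils in only 1 of 6 fits with a library removed, the fit without CGRP replicate 3.

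The 5 genes whose pattern was most like that of *Hdac5*, the gene with the largest macrophage log2 fold change of the list among those fitted, were *Tmem134* (r = 0.961), *AB124611* (0.935), *Fcgr2b* (0.931), *Mob3b* (0.931) and *Ethe1* (0.923). Likeness was Pearson's r over the 12 libraries of log2 levels taken as deviations from the mean of their own cell type, among 10693 genes of which 1 in 100 had an r over 0.816. The 12 points share their libraries and scaling, so r is a description. *Fcgr2b*, the inhibitory Fc gamma receptor, had log2 fold changes of −0.34 in neutrophils and 1.14 in macrophages, and *Mob3b* had −0.73 and 0.84. Of the other 9 genes of the list, *Sik1* had the highest r with *Hdac5* (0.649) and *Sik2* the lowest (−0.580).

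The saline groups were compared between the cell types in a limma-voom fit of all 12 libraries. The levels of the 10 genes were known when they were listed, so this comparison too is given for them as a description, without p-values. Saline macrophages had lower levels of *Hdac4*, *Sik1*, *Hdac7*, *Sik2* and *Hdac5* than saline neutrophils and a higher level of *Mef2c*, with ranges that did not overlap, while the ranges of *Hdac9*, *Sik3*, *Mef2a* and *Mef2d* overlapped. The same 6 of 10 genes were past the threshold, beside 67.9% of all 10694 genes tested. They were 5 lower and 1 higher, beside 35.4% and 32.5% of all genes, and ranges did not overlap for 70.5% of all genes (36.6% lower and 33.9% higher). The median log2 difference was −0.69 over the 10 genes and −0.03 over all genes, and nothing is read from these counts. The cell types also differed in isolation, days in culture and medium, which cannot be told apart from the cell type.

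The largest difference among the 10 was that of *Hdac4*, whose level was 88.8 ± 6.99 CPM in saline neutrophils and 7.49 ± 2.56 CPM in saline macrophages. The log2 difference was −3.62 (SE 0.23), or 12.3-fold lower. *Hdac5* was 1.88-fold lower (log2 difference −0.91, SE 0.13) and *Mef2c* 1.62-fold higher (0.69, SE 0.16). With CGRP, the macrophage range of *Hdac5* overlapped that of saline neutrophils.

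The kinases *Sik1* and *Sik2* were lower in macrophages by 2.90 (SE 0.72) and 1.06 (SE 0.34) on the log2 scale, and *Sik3* gave −0.47 (SE 0.30). *Sik1* rested on 0, 3 and 8 macrophage counts, and without the macrophage saline library at 0 its difference was −1.64. Over all fits with a library left out, the *Sik1* difference ranged from −3.82 to −1.64. *Hdac7* was lower by 1.08 (SE 0.33), and without macrophage saline replicate 1 it gave −0.77 and was no longer past the threshold. *Mef2a* gave 0.05 (SE 0.15), *Hdac9* 0.13 (SE 0.47) and *Mef2d* −0.32 (SE 0.24).

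**Figure D4:**
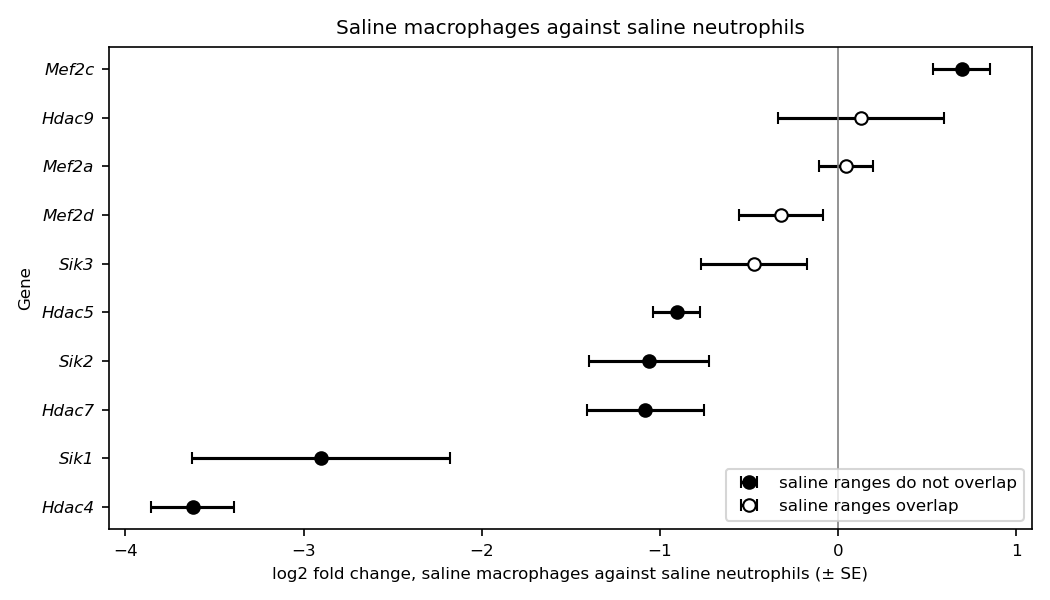
Log2 difference between saline macrophages and saline neutrophils (x axis, ± SE, 3 libraries per group) of each gene (y axis, ordered by value), filled where the saline ranges of the cell types did not overlap and open where they did. *Hdac4* is farthest to the left at −3.62 and *Mef2c* farthest to the right at 0.69.

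The remaining parts of the pathway were read from 9 lists of 83 genes, of which those with enough counts were tested in every contrast. With CGRP, 7 of the 66 listed genes tested in neutrophils passed, 4 higher and 3 lower, beside 2.53% of all genes. In macrophages 11 of 65 passed, 9 higher and 2 lower, beside 7.43%. The median log2 fold change of the listed genes was 0.04 in neutrophils and 0.09 in macrophages. The lists were chosen with earlier results of these data known, so their counts are given as a description.

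Upstream of the salt-inducible kinases, *Stk11*, which encodes their activator LKB1, had log2 fold changes of 0.19 (SE 0.18, adjusted p = 0.718) in neutrophils and 0.47 (SE 0.26, adjusted p = 0.347) in macrophages. Of the LKB1 complex and the AMPK-related kinases, 0 of 11 tested passed in neutrophils and 1 of 12 in macrophages, beside 2.53% and 7.43% of all genes, so the macrophage share was near that of all genes. That gene was *Nuak2*, a kinase of the same family as the SIKs, at 21.2, 15.3 and 23.4 CPM with saline and 58.6, 76.1 and 73.0 CPM with CGRP. It rose by 1.81 on the log2 scale in macrophages (SE 0.20, adjusted p = 2.17e-05), and in neutrophils, with 0.11 (SE 0.14, adjusted p = 0.82), its ranges overlapped. The effect was larger in macrophages by 1.71 (SE 0.24, interaction adjusted p = 0.000139).

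The CRTC coactivators are the other main substrates of the SIKs. *Crtc3*, the member best known in macrophages, rose in macrophages from 11.5, 8.09 and 21.2 CPM with saline to 25.1, 55.8 and 43.3 CPM with CGRP (log2 fold change 1.64, SE 0.34, adjusted p = 0.00543). In neutrophils it was 18.7, 14.1 and 29.9 CPM with saline and 19.5, 20.5 and 20.6 CPM with CGRP (0.06, SE 0.22, adjusted p = 0.952). The interaction of 1.60 (SE 0.45) had an adjusted p of 0.0599, which over the alternatives was between 0.00292 and 0.21 and under the replicate block 0.0142. *Crtc1* gave −0.43 (SE 0.41, adjusted p = 0.742) in neutrophils and 0.83 (SE 0.45, adjusted p = 0.335) in macrophages, and *Crtc2* gave 0.04 (adjusted p = 0.978) and 0.14 (adjusted p = 0.865). Of the 9 CRTC and CREB partner genes tested, *Crtc3* in macrophages was the only one to pass in either cell type, beside 7.43% of all genes in macrophages and 2.53% in neutrophils.

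No gene of 4 further lists passed in either cell type, beside 2.53% of all genes in neutrophils and 7.43% in macrophages. The 4 lists were the 14-3-3 proteins (7 and 6 genes tested in neutrophils and macrophages), the calcium and diacylglycerol kinases that also phosphorylate class IIa deacetylases (7 and 7), the NCoR/SMRT complex (6 and 6) and the other zinc-dependent deacetylases (6 and 6). *Hdac3*, the catalytic subunit that class IIa deacetylases recruit and a member of the last 2 lists, gave 0.01 (SE 0.17, adjusted p = 0.992) in neutrophils and −0.43 (SE 0.20, adjusted p = 0.235) in macrophages. Between the saline groups, *Hdac3* was higher in macrophages by 0.60 (SE 0.18, adjusted p = 0.00494) and *Stk11* lower by 1.27 (SE 0.24, adjusted p = 6.16e-05). In that contrast 51 of the 68 listed genes tested passed, 14 higher and 37 lower in macrophages, beside 67.9% of all genes.

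Of the MEF2 activators and partners, 1 passed, and it was not an activator. *Cabin1*, a MEF2 corepressor, fell in neutrophils from 52.2, 50.7 and 50.8 CPM to 39.7, 25.5 and 25.0 CPM (log2 fold change −0.77, SE 0.16, adjusted p = 0.00728), with adjusted p between 0.000959 and 0.0965 over the alternatives, the highest without CGRP replicate 2. It was the only one of the 6 tested in neutrophils to pass, beside 2.53% of all genes. In macrophages none of 6 passed, beside 7.43% of all genes. *Cabin1* gave −0.56 there (SE 0.21, adjusted p = 0.125), with every CGRP library below every saline library, beside 12.3% of all genes. Its interaction was 0.23 (SE 0.27, adjusted p = 0.796). Among 5 MEF2 targets tested in neutrophils, 2 fell, beside 1.02% of all genes lower. *Irf8*, a factor of monocyte and dendritic cell fate, fell from 139, 113 and 147 CPM to 72.5, 70.4 and 78.9 CPM (−0.83, SE 0.12, adjusted p = 0.000183), and *Klf4*, a Krüppel-like factor of monocytes, fell from 47.4, 52.8 and 50.1 CPM to 34.5, 28.2 and 24.6 CPM (−0.76, SE 0.15, adjusted p = 0.00402). In the same libraries the macrophage marker sum was between 1937 and 1960 CPM with saline and between 1732 and 2222 CPM with CGRP, which overlap, and none of the 10 markers tested passed. Of these 10 markers, 5 had a higher and 5 a lower value with CGRP, with a median log2 fold change of 0.01. Among the lower ones, *Adgre1* lay below the saline range in every CGRP library (44.3, 44.8 and 34.6 CPM against 27.3, 29.9 and 28.9 CPM, log2 fold change −0.50, SE 0.15, adjusted p = 0.0934). The part of these markers in the values of *Irf8* and *Klf4* was not tested.

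In macrophages 3 of 6 MEF2 targets passed, 1 higher and 2 lower, beside 3.46% and 3.97% of all genes. *Jun*, an AP-1 subunit, fell from 195, 167 and 236 CPM to 62.7, 53.2 and 52.8 CPM (−1.80, SE 0.16, adjusted p = 2.92e-06), and *Rcan1*, an inhibitor of calcineurin, fell from 23.2, 27.0 and 25.9 CPM to 7.21, 5.54 and 7.04 CPM (−1.91, SE 0.26, adjusted p = 0.000173). *Nr4a1*, a nuclear receptor that is also on the CREB list, rose from 10.6, 11.1 and 12.2 CPM to 24.5, 21.8 and 21.1 CPM (1.00, SE 0.22, adjusted p = 0.00996, over the alternatives between 0.00252 and 0.0669, the highest without saline replicate 1). The list thus moved in both directions. The fall of *Jun* differed between the cell types (interaction −1.64, SE 0.23, adjusted p = 9.72e-05), its neutrophil value being −0.14 (SE 0.14, adjusted p = 0.755). *Irf8* gave −0.27 in macrophages (SE 0.14, adjusted p = 0.288), with every CGRP library below every saline library, beside 12.3% of all genes. *Klf4* gave −0.31 (SE 0.37, adjusted p = 0.711), with overlapping ranges. Their interactions were 0.57 (SE 0.18, adjusted p = 0.11) and 0.47 (SE 0.39, adjusted p = 0.691).

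CRTC and CREB targets rose where they passed. In macrophages 7 of 9 tested passed, all higher, beside 3.46% of all genes higher. *Crem*, a cyclic AMP-induced member of the CREB family, rose from 14.4, 14.7 and 12.2 CPM to 190, 165 and 180 CPM (3.68, SE 0.19, adjusted p = 5.4e-09). *Pde4b*, a phosphodiesterase that breaks down cyclic AMP, rose from 12.3, 11.7 and 12.6 CPM to 139, 133 and 132 CPM (3.46, SE 0.19, adjusted p = 7.99e-09). *Nr4a2*, a nuclear receptor, rose from 1.15, 2.10 and 3.96 CPM to 41.1, 43.2 and 37.7 CPM (4.22, SE 0.39, adjusted p = 3.38e-06).

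*Fos*, *Nr4a1* and *Tnfsf14* also passed. *Fos*, an AP-1 subunit, gave 0.77 (SE 0.13, adjusted p = 0.00149). *Tnfsf14*, a TNF family ligand, rose from 9, 1 and 4 counts to 25, 22 and 11 (2.57, SE 0.56, adjusted p = 0.00949), and over the alternatives the adjusted p was between 0.000267 and 0.0594, the highest without saline replicate 2, where the value was 1.79. *Il10*, the cytokine most often linked to SIK inhibition in macrophages, was too low to be tested, with 9, 18 and 2 counts in saline and 2, 1 and 1 in CGRP macrophages; it was named after its values were seen.

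In neutrophils 4 of 11 CRTC and CREB targets passed, all higher, beside 1.51% of all genes higher, with a list median of 0.60. *Nr4a2* rose from 8.85, 8.59 and 8.29 CPM to 21.8, 26.1 and 23.7 CPM (1.47, SE 0.22, adjusted p = 0.000279). *Fos* rose from 48.7, 50.03 and 60.5 CPM to 141, 137 and 107 CPM (1.30, SE 0.13, adjusted p = 1.69e-06). *Pde4b* rose by 0.60 (SE 0.12, adjusted p = 0.00501, over the alternatives between 0.00296 and 0.0633, the highest without saline replicate 2) and *Dusp1*, a MAP kinase phosphatase, by 0.41 (SE 0.10, adjusted p = 0.0249), which held in 1 of 6 fits with a library removed (adjusted p between 0.0227 and 0.155 over the alternatives). *Crem* gave 0.81 (SE 0.23, adjusted p = 0.0692), although its CGRP libraries all lay above its saline libraries.

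The CGRP effects on *Crem* (interaction 2.88, SE 0.28, adjusted p = 1.29e-06), *Pde4b* (2.86, SE 0.21, adjusted p = 1.98e-08), *Nr4a2* (2.75, SE 0.42, adjusted p = 0.000374) and *Tnfsf14* (2.83, SE 0.54, adjusted p = 0.00339) were more positive in macrophages. The first 3 had positive log2 fold changes in both cell types, whereas *Tnfsf14* gave −0.25 in neutrophils (SE 0.10, adjusted p = 0.277), from 147, 141 and 119 CPM with saline to 107, 114 and 118 CPM with CGRP. With a library left out, the interaction of *Tnfsf14* ranged from 2.057 to 3.405. The interaction of *Fos* was −0.52 (SE 0.18, adjusted p = 0.177). In all, 6 of the 68 listed genes tested passed the interaction, 5 in the direction of macrophages, beside 2.36% of all 10694 genes. With CGRP the macrophage marker sum was also higher in macrophages (between 43060 and 49880 CPM), and its most abundant gene *Apoe* rose by 0.46 (SE 0.12, adjusted p = 0.0263) as the only one of the 11 markers to pass. The summed neutrophil markers, none of which passed, were between 417 and 446 CPM in CGRP macrophages, above the saline range of 302 to 395 CPM, and 5 plasmacytoid dendritic cell markers, led by *Bst2*, summed to between 223 and 263 CPM with saline and between 274 and 296 CPM with CGRP. In the same libraries *Tcf4*, of the plasmacytoid dendritic cell list, rose by 0.73 (SE 0.15, adjusted p = 0.00474) and *Cd4*, of the T cell list, by 1.68 (SE 0.47, adjusted p = 0.0394), with *Cd3e* and *Cd3g* at 0 in all macrophage libraries and *Cd3d* at 0 counts in each saline library and at 3, 1 and 0 counts with CGRP. The part of these shifts in the values of *Hdac5* and the listed genes was not tested.

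**Figure D5:**
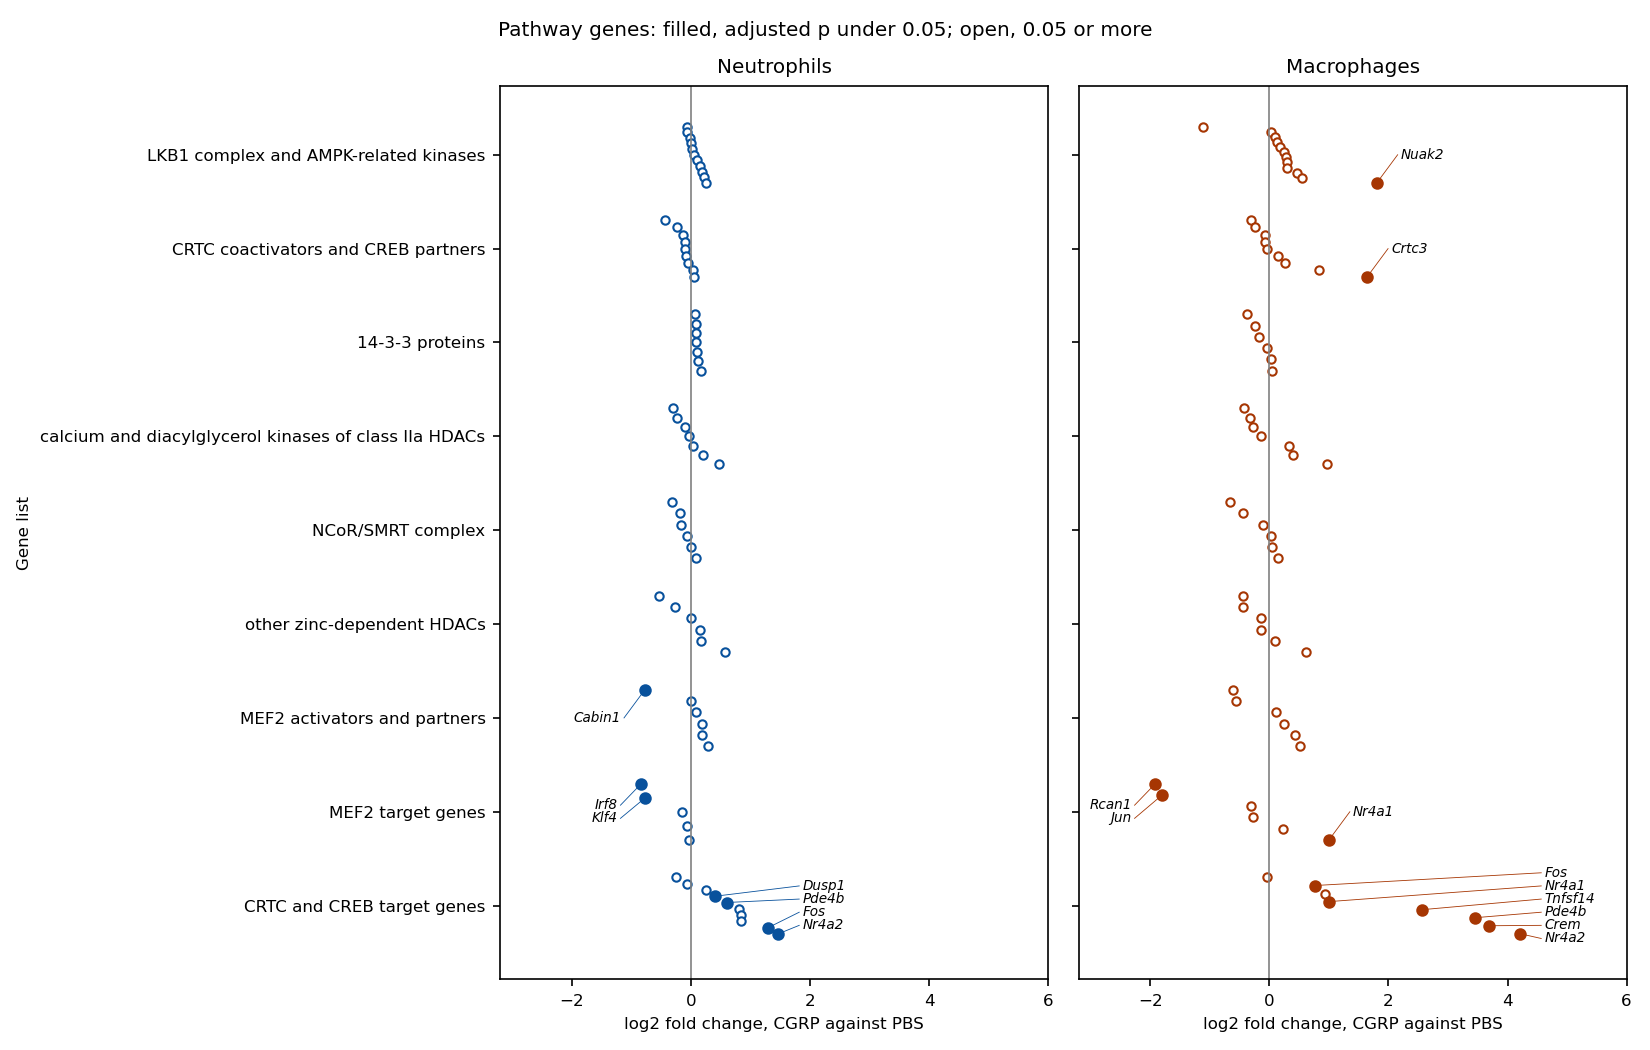
Log2 fold change between CGRP and PBS libraries (x axes) of tested genes of the 9 pathway lists (y axis, genes of a list spread vertically by value) in neutrophils (left) and macrophages (right), filled and named where the adjusted p was under 0.05. In macrophages *Nr4a2*, *Crem*, *Pde4b*, *Tnfsf14*, *Nr4a1* and *Fos* lie filled on the right among the CRTC and CREB targets, and *Jun* and *Rcan1* lie filled on the left among the MEF2 targets.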

How the data were processed

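RNA was primed with oligo-dT carrying unique molecular identifiers (UMIs) and read from the 3′ end. The authors ran the nfCore/RNAseq pipeline with its UMI function, aligned reads to GRCm38 with STAR, counted them with featureCounts, and deposited raw counts per gene, 1 table per cell type. The annotation release and strand setting are not given in the sources used here. Columns were matched to samples by name. Symbols and positions came from GENCODE M21 (52403 of 52636 genes matched).

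Each cell type was fitted on its 6 libraries with TMM and limma-voom, as the study's methods name, where the filter (filterByExpr) and the separate fits were chosen here (limma 3.58.1, edgeR 4.0.16, R 4.3.3), two-sided, Benjamini–Hochberg adjustment over all genes tested, threshold 0.05. The cell type contrast and the interaction came from a fit of 4 group means. The likeness used a pseudocount of 0.5 CPM. The code was tested on simulated data. Named pathway genes were those past the threshold (up to 6 per list and cell type) plus *Crtc1*, *Crtc2*, *Crtc3*, *Stk11*, *Mef2b* and *Hdac3*. Some genes that enter the list counts are not reported here by name. The 10 genes, the lists and the tests were chosen with earlier results of these data known. The alternatives tried were DESeq2 (1.42.0), the quasi-likelihood test of edgeR, other scalings, filters, thinning, a replicate block, other sample sets and leaving out each library. Floors cover counting error only. Promoter sequences are RefSeq's (GRCm38.p6).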

Additional observations from a re-analysis of the deposited data

Results flagged for a closer look

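*Hdac5* moved in opposite directions with CGRP, with a log2 fold change of −0.45 in neutrophils, where every CGRP library was below every saline library, and of 0.95 in macrophages, where every CGRP library was above. The difference was not tested. Ranges did not overlap for 17.8% of all genes tested in neutrophils and 24.1% in macrophages. In neutrophils *Hdac5* was not past the threshold with DESeq2, without TMM or in most fits with a library left out. 6 listed pathway genes had a CGRP effect that differed between the cell types by the interaction term of limma-voom. The effect was more positive in macrophages for *Crem* (2.88, adjusted p = 1.29e-06), *Pde4b* (2.86, adjusted p = 1.98e-08), *Tnfsf14* (2.83, adjusted p = 0.00339), *Nr4a2* (2.75, adjusted p = 0.000374) and *Nuak2* (1.71, adjusted p = 0.000139), and more negative for *Jun* (−1.64, adjusted p = 9.72e-05), all on the log2 scale.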

How the results depend on the processing

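Leaving out each library gave 138 to 234 genes past the threshold in neutrophils (248 with all libraries), 347 to 765 in macrophages (698), 6889 to 7559 for the cell types (7263) and 149 to 328 for the interaction (252). A single fit of 12 libraries gave 137 in neutrophils and 1050 in macrophages. Of the 10 genes, 2 to 3 were past the threshold in neutrophils when a library was left out, 1 to 3 in macrophages and 5 to 6 between the cell types. *Hdac5* in neutrophils was lost with DESeq2, without TMM, with thinned libraries and in the single fit. In macrophages 3 were past it without a filter on low counts and in the single fit (*Hdac5*, *Hdac9* and *Sik1*), and *Mef2a* was past it without saline replicate 2. With at least 10 counts in every library, 6 of the 10 could be tested between the cell types and 3 passed. Without TMM the share of higher calls was 70.1% against 59.7% in neutrophils and 36.4% against 51.2% for the interaction, where the median of all genes moved from 0.02 to −0.10.

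Nothing in the labels says that equal replicate numbers mark paired samples, and the main fits used no pairing. Deviations of same-numbered libraries correlated by 0.0435, −0.0126 and 0.135 in neutrophils and 0.0578, −0.176 and 0.267 in macrophages. Those of differently numbered libraries correlated by −0.135 to 0.104 in neutrophils and −0.396 to 0.379 in macrophages. With so few libraries per group, these values cannot tell whether the samples were paired. With the replicate number as a block, 289, 1007, 7434 and 406 genes passed in neutrophils, in macrophages, between the cell types and for the interaction, and the same genes of the 10 were past the threshold.

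Some values changed sign. In neutrophils *Crtc3* was −0.0178 with edgeR and −0.0273 with DESeq2, *Crtc2* was −0.0193 and *Hdac3* −0.0667 with thinned libraries, and *Hdac3* was −0.00222 in the single fit. With a library left out, *Crtc2* ranged from −0.19 to 0.23, *Crtc3* from −0.20 to 0.33 and *Hdac3* from −0.0940 to 0.161 in neutrophils, *Crtc2* from −0.0409 to 0.28 in macrophages and from −0.11 to 0.32 for the interaction, and *Mef2a* from −0.0674 to 0.28 and *Hdac9* from −0.20 to 0.37 between the cell types. Among the CGRP values given without p-values, *Mef2a* in neutrophils was −0.05 and became 0.00508 without TMM and 0.00939 without saline replicate 3, and *Hdac4* in macrophages was 0.17 and became −0.00151 without saline replicate 1. The cause of these changes was not tested. Of the remaining values of single genes with an adjusted p, 776 kept direction and side of the threshold, 18 lost the call and 6 gained it. At 2002559 to 3631989 counts per library, *Sik1* in saline macrophages and *Hdac7* and *Hdac9* in CGRP macrophages lay near or under the floor.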
